A study of Mus musculus with 12 samples.

Results

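Magnetic beads divided the cells of a mouse brain into retained astrocytes and a flowthrough that the beads did not hold, and both fractions of the same brain were sequenced for 4 animals. A library titled without the word flow was set against the flowthrough library of the same number, which was read as the animal. This rule took 8 of the 12 libraries of the series and 4 of its 8 animals, 201, 202, 203 and 205. The libraries of the other 4 animals, which gave the astrocyte fraction only, were left out.

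Mice of every group carried a floxed Bmal1 gene (Bmal fl/fl, official symbol Arntl), in a strain named with ALDH1L1-CreERT2, and were kept on a C57BL/6 background in 12-h light and 12-h dark. Cre-positive mice carry a tamoxifen-inducible Cre recombinase under the Aldh1l1 promoter, which is active in astrocytes, and Cre-negative mice do not. Both kinds, controls included, were dosed with tamoxifen by gavage when 2 months old (2 mg daily over 5 days). Brain tissue was collected from animals aged 7 months. Animals 201 and 202 are labelled wild type (WT) and animals 203 and 205 astrocyte knockout (aKO), so each genotype had 2 animals. Brains were digested with collagenase, debris was removed, and anti-ACSA-2 beads were used to isolate astrocytes. RNA was amplified with the SMARTer v1 kit. The astrocyte library of 202 is titled as wild type while its genotype field says knockout. It was kept as WT by its title, and the flowthrough of 202 is WT in both. All flowthrough titles end in a letter b that the labels do not explain, and whatever it marks cannot be told apart from the fraction.

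Astrocytes buffer potassium and water through Kir4.1 and aquaporin-4, clear glutamate from synapses and form a coupled network through connexin gap junctions. The ACSA-2 antibody recognises an epitope of the beta-2 subunit of the sodium pump, encoded by Atp1b2. Microglia are the resident macrophages of brain tissue, arise from the yolk sac, and depend on the transcription factor PU.1 and the receptor Csf1r. Blood, vessels, choroid plexus and meninges also contribute cells to a dissociated brain.

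Library totals ran from 21816637 to 62655238 counts, over 41388 genes. Genes encoded in mitochondria took 11.1% to 32.7% of counts in astrocyte libraries and 4.81% to 12.9% in flowthrough. Ttr, the transthyretin carrier made by choroid plexus, took 1.20% to 9.84% of astrocyte and 8.17% to 32.1% of flowthrough counts. The first principal component held 58.1% of the variance and separated the fractions. The flowthrough library of 202 stood apart from the others: it lay at 14.2 on that component, against 82.4 to 142 for the other flowthrough libraries and -118 to -64.9 for the astrocyte libraries. In bulk samples, fewer cells of a type and less RNA per cell cannot be told apart.

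The fractions carried the markers their labels call for. Values below are CPM, the deposited counts relative to library size after TMM scaling, and are listed for animals 201, 202, 203 and 205 in that order. Atp1b2, the target of the beads (chromosome 11 from 69599736 to 69605942), stood at 358, 394, 411 and 579 CPM in astrocytes and at 37.6, 126, 80.0 and 73.7 CPM in flowthrough. All 4 astrocyte libraries lay above all 4 flowthrough libraries. Aqp4, the aquaporin of astrocyte endfeet, stood at 590, 703, 655 and 379 CPM in astrocytes and at 58.8, 217, 93.4 and 4.91 CPM in flowthrough. Again the fractions did not overlap, but the flowthrough of 202 was high and that of 205 very low. Differences are log2 of astrocyte over flowthrough within an animal, fitted by edgeR with the animal as a block, and adjusted p is its quasi-likelihood p after Benjamini-Hochberg adjustment over all genes. Atp1b2 was 2.56 higher on the log2 scale (SE 0.42, edgeR adjusted p 0.00177) and Aqp4 3.39 higher (SE 0.72, edgeR adjusted p 0.00653).

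Microglial genes ran the other way. Tmem119, a surface protein of homeostatic microglia (chromosome 5 from 113793729 to 113800516), stood at 8.43, 3.34, 4.23 and 10.5 CPM in astrocytes and at 371, 193, 285 and 557 CPM in flowthrough. Siglech, a sialic acid-binding lectin (chromosome 7 from 55768178 to 55778925), stood at 22.0, 22.2, 17.1 and 14.7 CPM in astrocytes and at 890, 458, 642 and 522 CPM in flowthrough. Neither gene had an astrocyte library near any flowthrough library. Tmem119 was 54.9-fold lower in astrocytes (log2 difference -5.78, SE 0.41, edgeR adjusted p 5.13e-05) and Siglech 32.5-fold lower (-5.02, SE 0.44, edgeR adjusted p 8.24e-05).

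**Figure D1:**
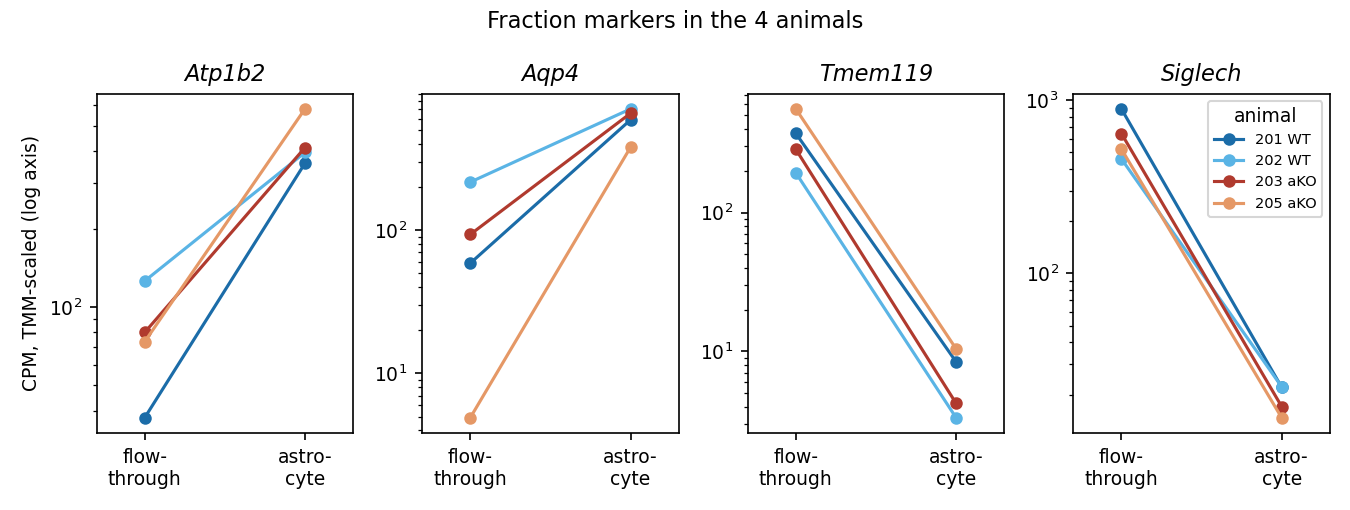
CPM on a log axis for Atp1b2, Aqp4, Tmem119 and Siglech, with a line joining the flowthrough and the astrocyte library of each animal. Lines rise for the first pair of genes and fall for the second in all 4 animals, and among the rising lines those of 202 are the flattest for both genes (126 to 394 CPM for Atp1b2 and 217 to 703 CPM for Aqp4).

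Arntl, the gene targeted by Cre, stood at 3.03, 7.46, 9.37 and 18.3 CPM in astrocytes and at 3.55, 4.25, 3.91 and 2.13 CPM in flowthrough. The labelled aKO animals were not lower than the WT animals in the astrocyte fraction. The count of a gene sums all its exons, including those outside the floxed stretch. It is therefore no check of the recombination or of the labels. The within-animal differences were -0.22, 0.80, 1.25 and 3.08, and the fitted difference of 1.20 did not pass (SE 0.49, edgeR adjusted p 0.0851). It passed in 4 of 14 alternatives: with DESeq2 (adjusted p 0.0316), and by edgeR with no count filter (adjusted p 0.00787), without animal 201 (1.69, adjusted p 0.0357) and in the aKO animals alone (2.08, adjusted p 0.0203). Over the 14 alternatives the estimate ran from 0.29 to 2.08 and the adjusted p from 0.00787 to 0.819.

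Across the genome the fractions differed widely. Of 18565 genes tested, 6004 passed an adjusted p of 0.05 by edgeR (32.3%). Of these, 3374 were higher in astrocytes (18.2% of genes tested) and 2630 lower (14.2%). These shares are the background for the list counts below. The lists were chosen with earlier results of these data known, so setting them beside the background is description and no test. The sign was the same in all 4 animals for 5793 of the 6004 genes. Differences of at least 16-fold were called for 81 genes that were higher and 288 that were lower. The 4 astrocyte libraries lay above all 4 flowthrough libraries for 2270 genes (12.2%) and below them for 2176 (11.7%). Scaling decides part of this split: 56.2% of calls were higher with TMM and 71.1% with library totals, when 3334 genes were higher and 1354 lower. The median difference over all genes moved from 0.10 with TMM to 0.44 with library totals, and differences given here are those with TMM.

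**Figure D2:**
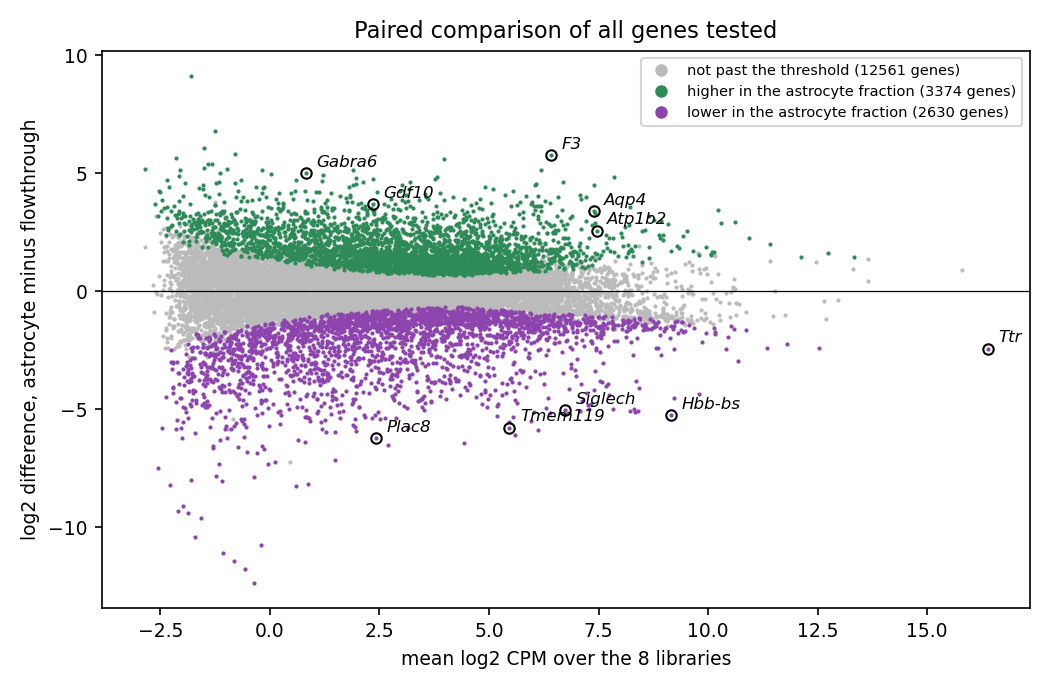
Fitted log2 difference between the fractions (vertical axis) against the mean log2 CPM over the 8 libraries (horizontal axis) for the 18565 genes tested. Green points are the 3374 genes higher in astrocytes, purple points the 2630 lower, and 288 of the lower but 81 of the higher genes differ by at least 16-fold.

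Animals contributed unequally. The count of calls was 3553 without animal 201, 2839 without 203, 4906 without 205 and 7326 without 202. Over the called genes the median size of the within-animal difference was 1.24 in 202 and 1.72, 1.85 and 1.84 in 201, 203 and 205. The flowthrough of 202 also held the most astrocyte marker RNA: a list of 24 astrocyte genes took 0.663% of its counts, against 0.0453% to 0.210% in the other 3 flowthrough libraries. Oligodendrocyte and neuron markers were highest there too, at 0.680% and 0.101%, against 0.107% to 0.253% and 0.00847% to 0.0351%. The part of this in the smaller differences of 202 was not tested.

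Astrocyte genes rose together. Of the 24 astrocyte markers, 22 rose and none fell, with a median log2 difference of 3.27 against 0.10 over all genes tested. Without animal 202, 22 rose and the median was 3.79. The list took 1.10%, 1.83%, 1.58% and 1.13% of counts in the astrocyte libraries and 0.0749%, 0.663%, 0.210% and 0.0453% in flowthrough. The share was thus 14.7, 2.75, 7.52 and 24.8-fold higher, in 4 of 4 animals. An exact sign-flip permutation test of the 4 pairs gave a two-sided p of 0.125, the smallest that 4 pairs allow. S100b and Slc7a10 were the members that did not pass (0.99 and 0.64, edgeR adjusted p 0.0753 and 0.0971).

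The largest rise among well measured genes, by the rule for named genes, was that of F3. F3, the tissue factor that starts coagulation, stood at 806, 473, 703 and 419 CPM in astrocytes and at 5.90, 104, 9.40 and 4.37 CPM in flowthrough (log2 difference 5.77, SE 0.91, edgeR adjusted p 0.00150). Gja1, encoding connexin 43, stood at 1215, 1239, 1560 and 841 CPM in astrocytes and at 22.0, 320, 59.6 and 10.3 CPM in flowthrough (4.83, SE 0.81). Gjb6, encoding connexin 30, stood at 430, 503, 506 and 323 CPM in astrocytes and at 5.73, 122, 26.2 and 1.23 CPM in flowthrough (5.14, SE 0.98). In each of these genes the flowthrough of 202 was the highest of its fraction. Luzp2 rose by 5.58 (SE 0.82), Entpd2, an ectonucleotidase that degrades ATP, by 4.84 (SE 0.64) and Gabrg1, a GABA-A receptor subunit, by 4.75 (SE 0.63). Dio2, the deiodinase that makes active thyroid hormone, rose by 4.62 (SE 0.66), Acsbg1, an acyl-CoA synthetase, by 4.6 (SE 0.87), Itih3 by 4.54 (SE 0.80) and Slitrk2 by 4.50 (SE 0.50).

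Among channels, pumps and junction genes of astrocytes, 13 of 18 rose and none fell (median 2.41). Kcnj16, a Kir5.1 potassium channel subunit, rose by 2.92 (SE 0.46), Slc4a4, the sodium bicarbonate cotransporter, by 3.76 (SE 0.58), and Hepacam, an adhesion protein partner of Mlc1, by 2.81 (SE 0.40). Atp1b1, a sodium pump beta subunit widespread in neurons and epithelia, had -0.05 (SE 0.33, edgeR adjusted p 0.921). Per length, Atp1b2 was measured at 124 ± 47.7 RPKM in astrocytes and 17.8 ± 10.1 RPKM in flowthrough (SD, n = 4), and Atp1b1 at 87.1 ± 53.4 and 64.2 ± 19.9 RPKM.

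Transmitter handling genes rose in 11 of 17 cases and fell in none (median 1.18). The glutamate transporter gene Slc1a2 stood at 724, 1513, 1002 and 1014 CPM in astrocytes and at 27.6, 395, 143 and 36.1 CPM in flowthrough (3.58, SE 0.62). Every astrocyte library exceeded every flowthrough library, and the flowthrough of 202 was again the nearest. Grm3, a metabotropic glutamate receptor, rose by 3.27 (SE 0.41), Slc7a11, the cystine-glutamate exchanger, by 2.58 (SE 0.38) and Aldh5a1, an enzyme of GABA breakdown, by 1.81 (SE 0.23). Glul, encoding glutamine synthetase and a common astrocyte marker, had 0.81 (SE 0.39, edgeR adjusted p 0.133).

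Among 16 genes for proteins by which astrocytes organise or prune synapses and for perineuronal matrix, 12 rose and 1 fell (median 3.0). Gpc5, a glypican, rose by 3.83 (SE 0.60), Megf10, an engulfment receptor, by 3.54 (SE 0.40) and Nlgn3, a neuroligin, by 2.82 (SE 0.40). Thbs1, a thrombospondin also made by platelets and myeloid cells, fell by 1.12 (SE 0.37, edgeR adjusted p 0.0416). In animal 205 Thbs1 was higher in astrocytes (0.14), and its call was lost in 7 of 14 alternatives. Mertk, an engulfment receptor that microglia and astrocytes share, had -0.69 (SE 0.30, edgeR adjusted p 0.0982).

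Transcription factors of astrocytes and glial stem cells rose in 12 of 20 cases and fell in 1 (median 1.07). Rorb rose by 4.00 (SE 0.54), Npas3 by 3.02 (SE 0.49), Lhx2 by 2.09 (SE 0.37) and Pax6 by 1.48 (SE 0.26). Hes1, a Notch target, fell by 1.84 (SE 0.36, edgeR adjusted p 0.00459), with 37.5, 23.9, 19.0 and 35.6 CPM in astrocytes and 118, 42.8, 101 and 190 CPM in flowthrough. Its fractions did not overlap.

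Markers of other neural cells also rose in the astrocyte fraction. Of 17 markers of myelinating oligodendrocytes, 14 rose and none fell (median 1.80), and without animal 202 the number that rose was 15. Mobp, a myelin protein gene, stood at 535.8, 1651, 1347 and 471.6 CPM in astrocytes and at 61.5, 631.4, 223.4 and 55.1 CPM in flowthrough (2.56, SE 0.47). It was higher in astrocytes in each animal, but the flowthrough of 202 lay above the astrocyte libraries of 201 and 205. Myrf, the transcription factor of myelination, rose by 1.76 (SE 0.31). Per length, the myelin gene Mbp was measured in the astrocyte fraction at 630 ± 310 RPKM, against 436 ± 91.8 for Gja1, 163 ± 24.1 for Slc1a3 and 1532 ± 815 for Aldoc (SD, n = 4). The marker list of oligodendrocytes took 1.01% to 1.83% of counts in astrocyte libraries, a range that overlaps the 1.10% to 1.83% of the astrocyte list.

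Of 13 oligodendrocyte precursor markers, 6 rose and none fell (median 1.27). Those that rose included Ptprz1 (3.68, SE 0.52), Bcan (3.72, SE 0.75), Cspg5 (2.02, SE 0.34) and Olig1 (2.10, SE 0.35). Ptprz1, Bcan and Cspg5 are also expressed by astrocytes.

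Neuron markers were higher in astrocytes. Of 16, 13 rose and none fell (median 2.10), but no member separated the 4 astrocyte libraries from the 4 flowthrough libraries. Snap25, a synaptic SNARE protein, stood at 206, 993, 716 and 128 CPM in astrocytes and at 6.32, 260, 40.1 and 5.19 CPM in flowthrough (3.99, SE 0.60, edgeR adjusted p 0.00117). The flowthrough of 202 exceeded the astrocyte libraries of 201 and 205, so this rise is seen within animals. Gad1, which makes GABA, rose by 2.37 (SE 0.30) and Rbfox3, the NeuN antigen, by 2.10 (SE 0.29). The neuron list took 0.0701% to 0.228% of astrocyte and 0.00847% to 0.101% of flowthrough counts. In all of these neural lists the higher mitochondrial share of the astrocyte libraries moved with the fraction. Mean log2 ratios of the neuron, oligodendrocyte and precursor shares were 2.47, 2.66 and 2.75. With mitochondrial genes and Ttr left out of the counts they were 2.46, 2.65 and 2.74. Any other part of the mitochondrial share was not tested.

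Genes of the cerebellum rose as well. Gdf10, a marker of Bergmann glia in the cerebellum, had the smallest p of the rising genes, at 15, 19.5, 16.6 and 21.1 CPM in astrocytes and 0.942, 1.75, 1.29 and 1.76 CPM in flowthrough. Its within-animal differences of 3.92, 3.44, 3.64 and 3.55 were nearly equal (fitted 3.68, SE 0.28, edgeR adjusted p 5.13e-05). Of 10 Bergmann glia markers 7 rose (median 1.55), among them Wif1 (2.87, SE 0.66), A2m (1.18, SE 0.25) and Sept4 (2.29, SE 0.47). Of 12 cerebellar neuron markers 10 rose (median 2.28). Neurod1, a transcription factor of granule neurons, stood at 18.5, 60.6, 29.3 and 8.79 CPM in astrocytes and at 0.421, 6.02, 1.54 and 0.531 CPM in flowthrough (4.22, SE 0.37). Gabra6, the GABA-A subunit of granule neurons, rose by 5.01 (SE 0.49), Cbln3 by 4.22 (SE 0.46) and Car8, a marker of Purkinje cells, by 3.54 (SE 0.42). Gabra6 had 5, 80, 24 and 0 flowthrough counts, Cbln3 2, 91, 32 and 7, and Wif1 8, 20, 10 and 5. These genes passed the count filter through the astrocyte fraction, so the numbers of rises in both lists are partly set by the filter.

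Pineal genes rose in the same direction. Tph1, the tryptophan hydroxylase of pinealocytes, stood at 11.8, 17.5, 4.93 and 5.80 CPM in astrocytes and at 0.347, 0.936, 0.333 and 0.491 CPM in flowthrough (4.2, SE 0.37, edgeR adjusted p 9.24e-05). The photoreceptor-type genes Crx (4.43, SE 0.59), Sag (2.82, SE 0.30) and Lhx4 (3.19, SE 0.51) rose as well. Of 9 listed pineal genes 6 were tested, and 5 of these rose (83.3%, against 18.2% of all genes). The exception was Asmt, the last enzyme of melatonin synthesis (-0.24, SE 0.51, edgeR adjusted p 0.748). These genes are rare: the list took 0.00379% to 0.00800% of counts in astrocytes and 0.000463% to 0.000628% in flowthrough. Crx and Lhx4 had few flowthrough counts (4, 14, 9 and 1, and 6, 26, 4 and 9). Such genes passed the count filter through the astrocyte fraction, so the number of rises is partly set by the filter. The list was also chosen with earlier results of these data known.

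Further genes with very small p among the rises were Gria4, an AMPA receptor subunit of Bergmann glia and interneurons (3.85, SE 0.33), and Prex2, a Rac exchange factor (2.71, SE 0.25). In neuroblast and stem cell markers 3 of 10 rose, against 18.2% of all genes, and 7 did not pass (median 0.31, with 4 of 10 estimates below 0). The smallest p was that of Egfr (2.98, SE 0.28, edgeR adjusted p 0.000115). Sox11 also rose (1.22, SE 0.38). In animal 202 Sox11 was lower in astrocytes (-0.15), and its call was lost in 6 of 14 alternatives. The list median was -0.10 without animal 205.

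Nearly all microglial markers fell. Of 20, 19 fell and none rose (median -4.33, against 14.2% of all genes called lower). Selplg stood at 14.7, 6.00, 6.45 and 11.7 CPM in astrocytes and at 705, 336, 451 and 783 CPM in flowthrough (-5.89, SE 0.43, edgeR adjusted p 5.13e-05). The complement gene C1qc stood at 15.8, 8.37, 10.9 and 27.4 CPM in astrocytes and at 490, 289, 470 and 941 CPM in flowthrough (-5.15, SE 0.41). Each flowthrough library was far above each astrocyte library in both genes. The exception was Sparc, a matrix protein also abundant in vessels, with 0.02 (SE 0.48, edgeR adjusted p 0.974) and 1094 ± 542 against 912 ± 459 RPKM (SD, n = 4).

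Sparc alone changes how much microglial RNA seems to remain. With it, the microglial list took 0.471% ± 0.157 of astrocyte counts and 2.19% ± 0.657 of flowthrough counts, a 4.66-fold difference. Without it, an alternative chosen after its values were seen, the list took 0.132%, 0.0723%, 0.0894% and 0.117% in astrocytes and 2.60%, 1.82%, 1.86% and 1.24% in flowthrough. The astrocyte fraction was then 18.2-fold lower, with 19.6, 25.2, 20.8 and 10.6-fold in the single animals. No microglial marker was at 0 in an astrocyte library, and the lowest value was the 3.34 CPM of Tmem119 in animal 202.

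Transcription factors of myeloid and blood cells fell in 13 of 16 cases and rose in none (median -3.38). Spi1, encoding PU.1, stood at 0.567, 0.322, 0.617 and 0.582 CPM in astrocytes and at 30.1, 11.1, 24.7 and 63.0 CPM in flowthrough (-5.76, SE 0.37). Runx1 fell by 3.85 (SE 0.27), Ikzf1 by 4.62 (SE 0.32) and Irf8 by 4.54 (SE 0.33). In the signalling chain that joins immune receptors to these cells' responses, 18 of 18 genes fell (median -3.59). They included the kinases Syk (-3.58, SE 0.26) and Btk (-3.73, SE 0.29), and Inpp5d, the SHIP1 phosphatase that restrains them (-4.20, SE 0.31).

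Chemokine genes held the largest fall of all genes named by size. Ccl5 stood at 4.95, 1.23, 1.77 and 2.53 CPM in astrocytes and at 215, 80.8, 182 and 472 CPM in flowthrough (-6.42, SE 0.50, edgeR adjusted p 5.48e-05). Ccl4, a ligand that draws leukocytes, stood at 11.6, 3.51, 5.92 and 4.97 CPM in astrocytes and at 413, 233, 400 and 643 CPM in flowthrough (-6.07, SE 0.49). The ligand gene Ccl3 fell by 4.48 (SE 0.32). Of 18 chemokine and receptor genes 12 fell and 1 rose (median -2.91). The riser was Cxcl14 (2.59, SE 0.40, edgeR adjusted p 0.00142), at 32.6, 60.4, 34.6 and 47.8 CPM in astrocytes and 2.90, 21.4, 9.35 and 4.17 CPM in flowthrough.

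Antigen presentation fell in both arms. Of 8 MHC class II genes 7 fell (median -2.78), among them H2-DMa (-4.23, SE 0.50) and H2-Aa (-2.87, SE 0.54). In animal 205 the class II median was -1.18, against -3.81 to -2.76 in the others. Of 10 class I genes 6 fell (median -1.31). B2m, the light chain of class I, stood at 727, 711, 603 and 382 CPM in astrocytes and at 4856, 2125, 4453 and 2197 CPM in flowthrough (-2.44, SE 0.47). The immunoproteasome gene Psmb9 fell by 2.44 (SE 0.26). Reads of MHC genes may be shared between near-identical family members, so their single values are uncertain.

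Complement genes did not move one way. C1qa (-4.93, SE 0.46) and C1qb (-4.54, SE 0.60), which with C1qc build the recognition unit, and the receptor gene C3ar1 (-3.23, SE 0.48) fell, as 7 of 14 genes did. C4b, a downstream component, rose by 1.39 (SE 0.33, edgeR adjusted p 0.0107), with 18.4, 15.6, 21.5 and 54.5 CPM in astrocytes and 3.92, 11.1, 11.3 and 14.4 CPM in flowthrough. C4b has a near-identical copy, C4a, with which reads may be shared. The list's median was -0.71.

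Of 12 markers of border-associated macrophages, which line vessels, meninges and choroid plexus, 4 fell and none rose (median -0.81). The share that fell was 33.3%, against 14.2% of all genes. Whether this list differs from the microglial list was not tested. Ccl24 fell by 1.96 (SE 0.29), Pf4 by 1.95 (SE 0.37), Stab1 by 1.84 (SE 0.33) and Ms4a7 by 1.24 (SE 0.34). In animal 205 the list's median was above 0 (0.70), against -1.85 to -0.24 in the others.

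Blood cell genes were also lower in the bead-bound fraction. All 14 neutrophil genes fell (median -3.94). Csf3r, the receptor for G-CSF, stood at 4.65, 3.57, 3.62 and 4.77 CPM in astrocytes and at 65.5, 61.9, 44.2 and 75.1 CPM in flowthrough (-3.88, SE 0.27, edgeR adjusted p 5.13e-05). Retnlg (-5.50, SE 0.48), Camp, a granule antimicrobial peptide (-5.12, SE 0.47), and the chemokine receptor Cxcr2 (-3.52, SE 0.33) fell likewise. The list took 0.0125% to 0.0316% of astrocyte counts and 0.304% to 0.659% of flowthrough counts.

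PU.1, whose own gene fell with the myeloid genes, binds a purine-rich core, and its letters GAGGAAGT were searched on both strands (reverse complement ACTTCCTC) in RefSeq promoters of GRCm38.p6, from 250 bases before to 50 after a gene's start. They were found in 5 of the 13 neutrophil promoters in the table (38.5%, with an entry for 13 of 14 genes) and in 3.20% of all 32851 promoters. The neutrophil list, whose share was the highest of the lists searched, was picked for description after the counts were seen. None of the 11 promoters of the basophil and mast cell list held the letters. None of 24 promoters of the myeloid transcription factor list, 14 of the chemokine list and 12 of the T and NK cell list held the letters, although fewer than 80% of the genes of these lists had an entry. Other lists with as few entries did hold them. The letters were in 2 of 15 microglial promoters (13.3%, with an entry for 13 of 20 genes) and 2 of 13 endothelial promoters (15.4%). They were also in 2 of 11 promoters each of the border macrophage and of the monocyte and dendritic cell list (18.2%). The letters are thus not particular to the neutrophil list. None of the 27 astrocyte marker promoters held the letters. Windows of 60 bases around the match are shown for 3 neutrophil genes that fell, S100a8, an alarmin subunit (-5.07, SE 0.53, chr3:90668873-90668932), Mmp8, the neutrophil collagenase (-3.30, SE 0.35, chr9:7558182-7558241), and Prtn3, proteinase 3 (-2.96, SE 0.51, chr10:79879546-79879605). All are on the plus strand and written 5′ to 3′, with the searched letters in capitals. GENCODE vM21 places no gene over the first pair of windows and an intron of another Prtn3 transcript over the third. Elane and Mpo also held the letters.
S100a8: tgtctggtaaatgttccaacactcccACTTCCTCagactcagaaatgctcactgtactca
Mmp8: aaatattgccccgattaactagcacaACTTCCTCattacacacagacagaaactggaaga
Prtn3: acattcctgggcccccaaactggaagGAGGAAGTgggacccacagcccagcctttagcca
The letters lie 172, 221 and 95 bases before the RefSeq starts. A match is a description of these windows and shows no binding.

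Lymphocyte genes followed. Of 14 T and NK cell genes 12 fell (median -4.43), including Cd3d (-6.29, SE 0.45), Cd3g (-4.79, SE 0.31) and Nkg7, a granule protein of cytotoxic cells (-6.53, SE 0.64). All 9 B and plasma cell genes tested fell (median -4.28), and 2 of 11 listed were not tested. Cd79a, a chain of the B cell receptor, stood at 0.830, 0.205, 0.699 and 0.649 CPM in astrocytes and at 16.4, 13.7, 12.4 and 8.30 CPM in flowthrough (-4.45, SE 0.42). The kappa constant gene Igkc stood at 12.7, 1.17, 4.97 and 21.9 CPM in astrocytes and at 281, 232, 453 and 290 CPM in flowthrough (-5.53, SE 0.73). The kappa variable gene Igkv1-110 had 1, 0, 0 and 0 counts in astrocyte libraries and 471, 276, 1761 and 339 counts in flowthrough. Expressed immunoglobulin genes are rearranged, and reads can be shared within the family. Cd3d had 27, 2, 2 and 8 counts in astrocyte libraries and 557, 234, 647 and 537 in flowthrough. Cd79a had 60, 7, 17 and 29 counts in astrocyte libraries and 662, 541, 598 and 203 in flowthrough. Such genes passed the count filter through the flowthrough, so the numbers of falls in both lists are partly set by the filter.

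Of 12 monocyte and dendritic cell genes 8 fell (median -2.81). Plac8 stood at 0.581, 0.527, 0.822 and 0.492 CPM in astrocytes and at 49.2, 24.1, 70.3 and 46.4 CPM in flowthrough (-6.23, SE 0.33, edgeR adjusted p 3.99e-05). Ccr2, the receptor that brings monocytes from marrow, fell by 2.97 (SE 0.37), Ly6c2 by 3.23 (SE 0.30) and Chil3 by 4.07 (SE 0.63). Ly6c2 has a close paralog, Ly6c1, which had -1.01 (SE 0.39, edgeR adjusted p 0.0707).

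Of 9 basophil and mast cell genes, 5 fell and 1 rose (median -1.95, also with Mcpt8 at the bound given here). The basophil protease Mcpt8 had no count in any astrocyte library and 392, 128, 879 and 327 counts in flowthrough. With 3 counts as the limit that 0 allows in each library, for counting error only, it was at least 234, 36.9, 148 and 199-fold lower in astrocytes. Prss34, another basophil protease, stood at 0.0553, 0, 0 and 0.246 CPM in astrocytes and at 37.9, 16.9, 74.9 and 7.64 CPM in flowthrough. Mcpt8 and Prss34 passed the count filter through the flowthrough, so the number of falls is partly set by the filter. Kit, a receptor of mast cells that some neurons and glia also express, rose by 1.88 (SE 0.34, edgeR adjusted p 0.00273).

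Red cell genes fell in 7 of 8 cases (median -4.94). The beta globin gene Hbb-bs stood at 99.8, 122, 104 and 58.0 CPM in astrocytes and at 1566, 3674, 7645 and 3328 CPM in flowthrough (-5.24, SE 0.60). Hba-a1 and Hba-a2 fell by 5.10 and 4.99, but the globin copies are near-identical and their reads may be split. Further genes named for size or p were Cd52 (-5.34, SE 0.52), Susd3 (-5.30, SE 0.53), Kcnk6, a potassium channel (-4.53, SE 0.28), Cmklr1, the chemerin receptor (-4.69, SE 0.29), and the unnamed transcript 5830432E09Rik (-6.38, SE 0.36).

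**Figure D3:**
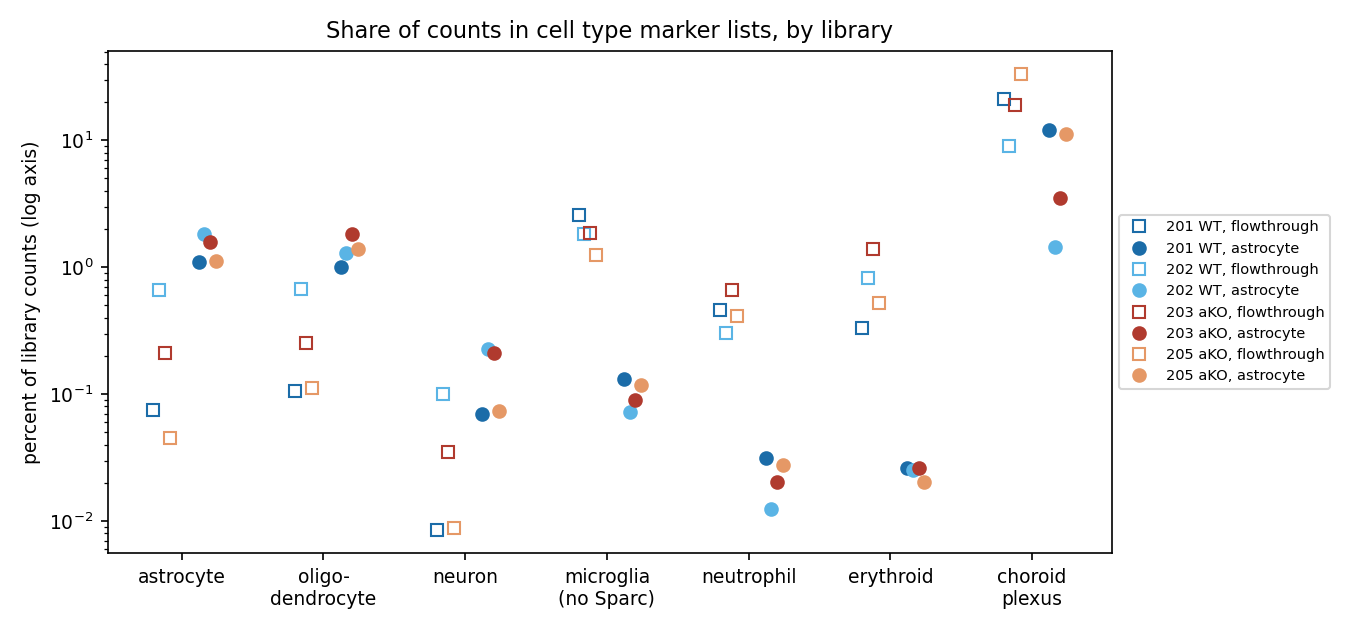
Percent of a library's counts in 7 marker lists, on a log axis, with open squares for flowthrough and filled circles for astrocyte libraries of the 4 animals. The flowthrough of 202 holds 0.663% astrocyte and 0.680% oligodendrocyte marker counts, the highest of its fraction, while microglial, neutrophil and erythroid shares do not overlap between fractions.

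Vessel markers were mostly not called. Of 16 endothelial markers 1 rose, 1 fell and 14 did not pass (median 0.05, -0.02 with the size factors of DESeq2). In each direction this is 6.25%, against 18.2% of all genes called higher and 14.2% called lower. Mfsd2a, the lipid transporter of the blood-brain barrier, rose by 1.86 (SE 0.37), with 33.0, 25.0, 11.7 and 20.6 CPM in astrocytes and 3.37, 9.77, 5.36 and 6.17 CPM in flowthrough. Eng, endoglin, fell by 1.95 (SE 0.30). Cldn5, the main tight junction claudin, had -0.65 (SE 0.29, edgeR adjusted p 0.112), with 8.63, 9.33, 9.99 and 31.5 CPM in astrocytes and 15.2, 16.7, 22.7 and 26.1 CPM in flowthrough. A p that misses the threshold does not show equal levels. The endothelial share was higher in astrocytes in 2 of 4 animals (0.0605% to 0.133% against 0.0527% to 0.107%).

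Of 12 pericyte and smooth muscle markers 1 fell, Higd1b (-1.57, SE 0.34), and none rose (median 0.16). Pdgfrb had 0.74 (SE 0.32, edgeR adjusted p 0.0976). Of 11 fibroblast markers 2 rose, Col1a1 (1.18, SE 0.34) and Lum (1.39, SE 0.43), with a median of 0.55. Their calls were lost in 5 and 6 of 14 alternatives, and Lum was lower in astrocytes in animal 202 (-0.30). The share of fibroblast markers that rose equals the 18.2% of all genes called higher, and the 1 of 12 pericyte and smooth muscle markers that fell is 8.33%, against 14.2%.

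Of 14 choroid plexus genes 2 fell (14.3%, against 14.2% of all genes), Ttr (-2.43, SE 0.59, edgeR adjusted p 0.0121) and Tmem72 (-1.29, SE 0.29), and none rose (median -0.74). Ttr stood at 85270, 13130, 23900 and 68520 CPM in astrocytes and at 218200, 79120, 202500 and 432900 CPM in flowthrough. The astrocyte library of 201 lay above the flowthrough library of 202, so the fractions overlapped. With mitochondrial genes and Ttr left out of the counts, the share of the choroid plexus list was higher in astrocytes in 2 of 4 animals (log2 ratios 0.84, -1.52, -0.04 and 0.08). Aqp1, the choroid plexus aquaporin, had -0.95 (SE 0.41, edgeR adjusted p 0.0988). Of 14 ependymal genes 9 fell (median -1.54), including Tmem212 (-2.16, SE 0.44), Dynlrb2, a dynein light chain of cilia (-2.11, SE 0.44), and Mia (-2.12, SE 0.36).

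**Figure D4:**
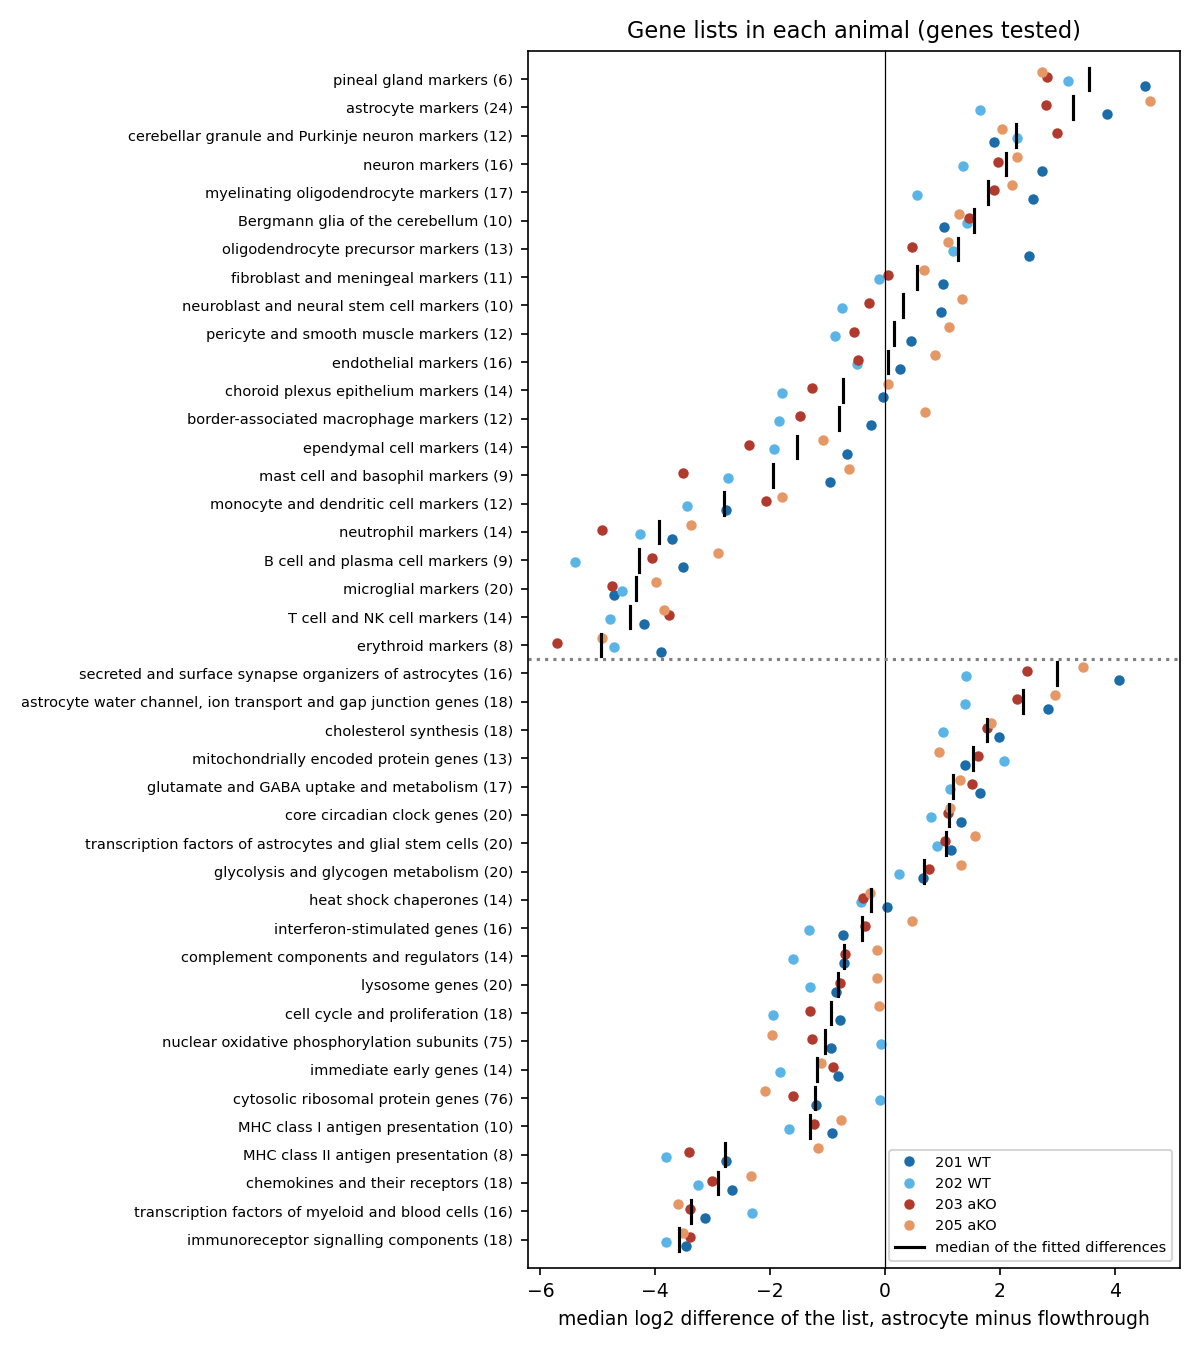
Median log2 difference of each of 42 gene lists in each animal (points) and over the fitted values (bars), with cell type lists above the dotted line and process lists below it. Astrocyte, oligodendrocyte and neuron lists lie above 0 and microglial, neutrophil and erythroid lists below 0 in all 4 animals, and vessel lists lie on both sides of 0.

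Among metabolic genes, cholesterol synthesis rose in 14 of 18 cases and fell in none (median 1.78, and 1.01 in 202 against 1.78 to 1.99 in the others). Dhcr7, a reductase of the last steps, stood at 102.7, 89.0, 88.2 and 55.2 CPM in astrocytes and at 8.48, 32.1, 9.71 and 9.56 CPM in flowthrough (2.70, SE 0.39, edgeR adjusted p 0.00104). Its fractions did not overlap, and the flowthrough of 202 was the highest of its fraction. Hsd17b7, a reductase of the same pathway, rose by 2.00 (SE 0.29).

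Glycolysis and glycogen genes rose in 5 of 20 cases (25%, against 18.2% of all genes) and fell in 1 (5%, against 14.2%), with a median of 0.67. Pfkm, a phosphofructokinase, rose by 2.93 (SE 0.39), and the glycogen phosphorylases Pygm and Pygb rose by 2.27 (SE 0.32) and 1.88 (SE 0.36). Hk2, a hexokinase isoform, fell by 4.78 (SE 0.51, edgeR adjusted p 0.000204), with 6.59, 7.20, 3.21 and 5.95 CPM in astrocytes and 195, 61.7, 130 and 303 CPM in flowthrough.

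Respiratory chain genes encoded in mitochondria were mostly higher in astrocytes. Of 13 protein genes encoded in mitochondria 9 rose and none fell (median 1.53), including mt-Nd5 (2.01, SE 0.45) and mt-Nd6 (1.57, SE 0.42). Their share was 8.68%, 14.7%, 11.1% and 4.72% of counts in astrocytes and 2.76%, 5.09%, 3.73% and 1.28% in flowthrough. Of 75 nuclear subunits 10 fell, 4 rose and 61 did not pass (median -1.04). The share that fell, 13.3%, is close to the 14.2% of all genes, and the share that rose was 5.33%, against 18.2%. Estimates were below 0 for 57 of the 75. The astrocyte libraries lay below all flowthrough libraries for 24 and above them for 3, against 11.7% and 12.2% of all genes. Atp5g1, a subunit of the ATP synthase ring, fell by 2.14 (SE 0.50). The risers were Uqcrc1 (1.92, SE 0.48), Sdha (1.51, SE 0.40), Ndufs1 (1.35, SE 0.33) and Cox6a1 (2.24, SE 0.70), of which Cox6a1 was lower in animal 202 (-0.48). Of 76 cytosolic ribosomal protein genes 27 fell (35.5%, against 14.2% of all genes) and none rose (median -1.23). Rpl10 (-1.68, SE 0.44) and Rps9 (-1.79, SE 0.49) were among those that fell. In animal 202 the nuclear and ribosomal medians were -0.07 and -0.09, against -1.96 to -0.94 and -2.08 to -1.21 in the others.

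Gene length moved with these results. Protein-coding genes were put in 5 groups of nearly equal size by exon length. Those in the shortest group (204 to 2050 bases) were called higher in 7.90% and lower in 26.6% of cases, with a median of -0.45. Those in the longest group (from 6398 bases) were called higher in 30.1% and lower in 7.08%, with a median of 0.43. Ribosomal and nuclear respiratory genes are mostly short, and the part of length in their fall was not tested. Within the nuclear respiratory list the median was -1.18 over 26 genes of 365 to 963 bases and -0.81 over 49 genes of 1032 to 8086 bases.

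**Figure D5:**
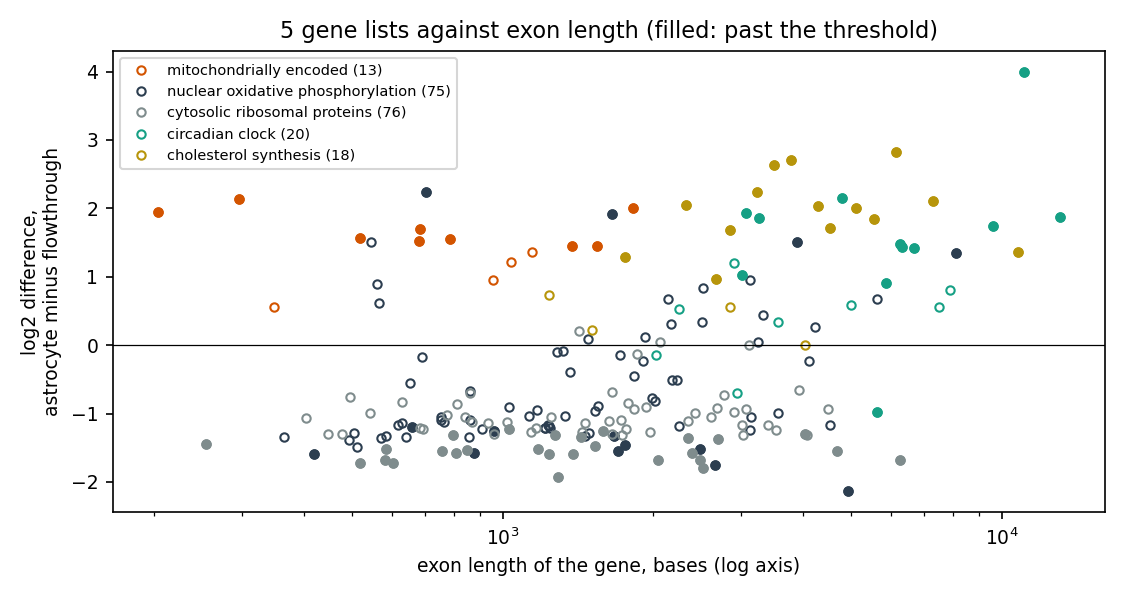
Fitted log2 difference between fractions (vertical axis) against exon length on a log axis for 5 gene lists, filled where the gene passed. The 13 mitochondrially encoded genes lie above 0 though short, ribosomal genes lie mostly below 0, and 27 of 76 of them are filled.

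Clock genes, the pathway the series targets, were mostly higher in astrocytes: 11 of 20 rose and 1 fell (median 1.11). Among activators, Npas2, a partner of Bmal1, stood at 4.59, 8.69, 13.4 and 23.1 CPM in astrocytes and at 0.768, 3.24, 3.51 and 3.47 CPM in flowthrough (2.16, SE 0.32). The labelled aKO libraries were the highest, and no genotype difference in the fraction effect was called. Clock had 0.55 (SE 0.26, edgeR adjusted p 0.130). Among the nuclear receptors that drive Bmal1 transcription, Rora rose by 1.87 (SE 0.28) and Rorb by 4.00 (SE 0.54), and the repressor gene Nr1d1 rose by 1.94 (SE 0.43). Among the feedback repressors, Per3 (1.74, SE 0.34), Cry1 (1.02, SE 0.26) and Cry2 (1.43, SE 0.31) rose. Per1 fell by 0.98 (SE 0.27, edgeR adjusted p 0.0202), with 8.0, 6.38, 6.45 and 20.4 CPM in astrocytes and 14.7, 8.81, 20.8 and 38.3 CPM in flowthrough. It was lower within each animal, though the fractions overlapped. The call of Per1 was lost in 6 of 14 alternatives, and over the 14 its estimate ran from -1.38 to -0.64.

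Bmal1 binds the E-box CACGTG, the same letters on both strands. They were found in 6 of 23 promoters of the clock list (26.1%, with an entry for 17 of 20 genes), of 5 genes, and in 7.15% of all RefSeq promoters. The clock list does not stand alone in this: the lysosome list held the E-box in 6 of 17 promoters (35.3%). Windows of 58 bases are shown for Per1, which fell, and Cry1, which rose, in GRCm38.p6, 5′ to 3′ on the gene's strand with the E-box in capitals.
Per1: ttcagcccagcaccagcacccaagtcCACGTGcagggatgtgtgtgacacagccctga
Cry1: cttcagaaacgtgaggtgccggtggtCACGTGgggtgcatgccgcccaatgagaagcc
The Per1 window lies at chr11:69098757-69098814 on the plus strand, within an intron of another Per1 transcript in GENCODE vM21, and the Cry1 window at chr10:85185083-85185140 on the minus strand, with no gene over it. Bhlhe41 (1.48, SE 0.44) also held the letters and rose. Tef and Ciart held them and did not pass (0.80 and 0.52, edgeR adjusted p 0.0557 and 0.348). The same letters thus stood before genes that rose, fell or did not pass. The fall is that of Per1, whose call was lost in 6 of 14 alternatives.

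Immediate early genes, which respond within minutes to stimulation and handling, were mostly lower in astrocytes. Of 14 immediate early genes 9 fell in astrocytes (median -1.18). Jun stood at 17.2, 10.1, 13.7 and 33.5 CPM in astrocytes and at 133, 64.2, 99.2 and 385 CPM in flowthrough (-3.0, SE 0.33). Junb (-3.30, SE 0.29), Ier2 (-2.88, SE 0.27) and the phosphatase Dusp1 (-1.89, SE 0.27) fell too. Of 14 heat shock genes 4 fell (28.6%, against 14.2% of all genes) and 10 did not pass. Those that fell included the near-identical pair Hspa1a (-2.41, SE 0.25) and Hspa1b (-2.92, SE 0.31). The heat shock median was -0.25 with TMM and 0.10 with library totals, and the share of the list in the counts was higher in astrocytes in 3 of 4 animals (log2 ratios 0.27, -0.55, 0.09 and 0.68).

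Lysosome genes fell in 8 of 20 cases (40%, against 14.2% of all genes, median -0.82), led by those of macrophages: Ctss (-4.34, SE 0.60), Cd68 (-4.17, SE 0.62) and Grn (-2.11, SE 0.38). Of 18 cell cycle genes 8 fell (44.4%, median -0.94), with Birc5 at -2.96 (SE 0.31), Top2a at -1.34 (SE 0.29) and Mki67 at -1.50 (SE 0.35). In animal 205 the shares of the lysosome and cell cycle lists were higher in astrocytes (log2 ratios 0.39 and 0.72). In the other animals they were lower (-2.38 to -1.53 and -1.48 to -0.66). Interferon-stimulated genes fell in 5 of 16 cases (31.25%, against 14.2% of all genes) and rose in 1 (6.25%, against 18.2%), with a median of -0.41. Bst2 fell by 1.97 (SE 0.37) and Ifitm3 by 1.98 (SE 0.43). Oas2 rose by 1.63 (SE 0.37, edgeR adjusted p 0.00862), with 1.47, 1.52, 12.6 and 10.3 CPM in astrocytes and 0.471, 0.936, 4.01 and 1.88 CPM in flowthrough. Both fractions of the labelled aKO animals were above those of the labelled WT animals in this gene.

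Some genes varied more between animals than others did. Agt, encoding angiotensinogen, stood at 756.7, 1029, 859.0 and 583.7 CPM in astrocytes and at 11.7, 287.9, 91.4 and 5.27 CPM in flowthrough (4.49, SE 0.91, edgeR adjusted p 0.00535). Eif1, a translation initiation factor, stood at 861.5, 324.4, 796.3 and 635.8 CPM in astrocytes and at 83.1, 943.7, 101.9 and 164.4 CPM in flowthrough (1.91, SE 0.82, edgeR adjusted p 0.102). It was lower in astrocytes in animal 202 only, with a difference of -1.54 against 1.95 to 3.37 in the other 3 animals. Zrsr1, a splicing factor gene, stood at 23.5, 22.5, 1001 and 31.5 CPM in astrocytes and at 15.9, 12.3, 14.8 and 25.3 CPM in flowthrough (1.51, SE 0.87, edgeR adjusted p 0.205). Its high value is in 1 library, the astrocyte library of 203.

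Whether the fractions differed unequally by genotype was tested by an interaction term over 2 labelled WT and 2 labelled aKO animals. Of 18565 genes 1 passed (0.00539%), by edgeR, and 437 had an unadjusted p under 0.05 (2.35%). On simulated counts with these libraries' sizes this test recovered 3.06% of genes given a 4-fold interaction, over 18282 genes. The fraction comparison itself recovered 82.3% of 96 genes changed 4-fold and 14% of 100 genes changed 2-fold, over 18242 genes. In the data 6004 genes were called, many more than were changed in the simulation. The adjusted threshold depends on that number, so these rates do not give the power of the real fraction comparison. DESeq2 called 1 gene, limma voom 0, and without animals 201, 202 and 203 the count was 0, 3 and 8.

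The gene that passed was Igha, the constant region of IgA, which is secreted by plasma cells. It had 2 and 0 counts in the astrocyte libraries of labelled WT 201 and 202, and 469 and 469 in those of labelled aKO 203 and 205. Its flowthrough counts were 3843, 3897, 4742 and 1351, so the animals differed in the astrocyte fraction. The fraction difference was -10.28, -10.98, -2.35 and -2.39 within the animals, and the interaction estimate 9.80 (SE 0.86, edgeR adjusted p 0.0174), a size that depends on the prior count used for libraries at or near 0. The overall fall of Igha (-5.78, SE 1.87, edgeR adjusted p 0.0418) was lost in 7 of 14 alternatives. The interaction was lost with library totals, with limma voom, without animal 201 and with animal 202 counted as aKO (adjusted p 0.233, 0.0702, 0.0810 and 1.0, from edgeR except for limma voom).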

How the data were processed

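RNA of 8 libraries, an astrocyte and a flowthrough library from each of 4 brains, was sequenced. The deposited tables hold the authors' raw read counts per gene. The tools named, without their roles, are featureCounts 1.4.6-p5 and Subread, STAR 2.5.1a, and bcl2fastq, with GRCm38 as genome, per the submitters' processing notes. How reads with several hits were counted, whether strand was used, and which gene annotation served are not given in the sources used here. Overlapping and antisense genes and near-identical copies are therefore uncertain. The CPM that the authors deposited equalled count over library total. The RPKM that the authors deposited, per kilobase of gene length per the file headers, were used for levels between genes only. Genes without a symbol, 1134 of 41388, took 0.0782% to 0.116% of counts and were kept.

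From the counts, edgeR 4.0.16 (R 4.3.3) fitted the fraction with the animal as a block, after filtering by expression (minimum count 10, minimum total 15) and TMM scaling, leaving 18565 genes and 3 residual degrees of freedom. A gene rare in 1 fraction could pass the filter through the other alone, so list counts of rare genes depend partly on the filter. The quasi-likelihood test was adjusted by Benjamini-Hochberg at 0.05. The genotype interaction left 2 residual degrees of freedom. Log2 values per library used a prior count of 2. Numbers in the titles pair the libraries because both fractions come from 1 brain. Deviations from the fraction means correlated within animals 201, 202, 203 and 205 at 0.3955, 0.3214, 0.1698 and 0.5114 across genes. Between fractions of different animals the values ran from -0.4383 to 0.3067. The highest of these joined the astrocyte library of 203 to the flowthrough of 202, above the value of 203 with its own flowthrough. Both tests were tested on simulated data. Depth limits low genes: where a gene had 0 counts in all 4 libraries of a fraction, 3 counts per library were taken as the limit that 0 allows, for counting error only.

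Alternatives were no block, other scalings, no filter, DESeq2 1.42.0, limma voom 3.58.1, no mitochondrial genes and Ttr, thinning to the smallest total, each animal left out, each genotype alone, and 202 counted as aKO. The members and the 42 gene lists were chosen with earlier results of these data known. Genes were named by a rule: the 4 markers and Arntl, the 10 largest differences in each direction (mean log2 CPM of at least 3, same sign in all animals), the 5 smallest p in each direction, up to 4 members of each list with the smallest p and up to 3 against its direction, the 5 most variable genes, and genes past the interaction test. Other list members given with their values were chosen after these were seen. Promoter sequences are from RefSeq, GRCm38.p6. Some genes that the rule names are not reported here.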

Additional observations from a re-analysis of the deposited data

Results flagged for a closer look

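Across named genes and list shares, 238 sets of 4 within-animal values were examined for an animal far from the other 3, and 8 were found. Chance alone gives such a value in about 1 in 20 groups of 4. Zrsr1 had a log2 difference of 6.07 in animal 203, against 0.31 to 0.87 in the others. In animal 202, Slitrk2 had 2.53 (others 4.96 to 5.35), Pfkm 1.94 (others 3.14 to 3.36) and Plac8 -5.39 (others -6.42 to -6.29). The share of clock genes had a log2 ratio of 0.71 there, against 1.89 to 1.96. In animal 205, H2-T23 had -0.60 (others -2.29 to -2.08) and H2-DMb2 -0.58 (others -3.54 to -3.26). The share of the microglial list, Sparc included, had a log2 ratio of -3.13 in animal 201, against -1.97 to -1.85. The difference of Igha between fractions was 9.80 higher in labelled aKO than in labelled WT animals, by the interaction test of edgeR.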

How the results depend on the processing

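The fits rest on 4 animals, 2 a genotype, and on labels that disagree for 202. Without the replicate block, that is without pairing libraries by animal, 3815 genes were called, 1741 higher, and 3721 of the 3815 were also called with the block. Library totals gave 1354 lower genes. WT animals alone gave 1918 calls (886 higher, 1032 lower), and aKO animals alone 2128 higher genes. Leaving out 1 animal gave 2839 (without 203) to 7326 (without 202) calls, 1542 to 3835 higher and 1297 to 3491 lower. For the genotype interaction, library totals, limma voom and 202 counted as aKO gave 0 calls and 0 higher, and no count filter gave 12, 9 higher and 3 lower. Leaving out 1 animal gave 0 (without 201) to 8 (without 203) calls, 0 to 8 higher and 0 to 2 lower.

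Over 196 named genes, 2577 of 2739 alternative values kept direction and side of the threshold, 141 lost the call, 21 gained it and 0 changed direction. Near 0, list values changed sign. The endothelial median was -0.019 with DESeq2 size factors, a setting added after seeing the data, and -0.21 to 0.36 with 1 animal left out. The mural median was -0.088 without the block and -0.32 to 0.43 with 1 animal left out. The neuroblast median was -0.10 to 0.74 with 1 animal left out. The heat shock median was 0.10 with library totals. With 1 animal left out, log2 ratios of shares ran from -0.076 to 0.63 (endothelial), -0.59 to 0.006 (fibroblast) and -0.064 to 0.35 (heat shock). The cause of these changes was not tested.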
